A study of Danio rerio with 8 samples.

Results

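The genes *csf1ra*, *spi1b*, *coro1a*, *lcp1*, *mpeg1.1*, *cxcr3.2*, *ptprc*, *cybb* and *laptm5* are used in zebrafish to tell macrophages and microglia, or white blood cells as a whole, from other cells. They were taken by name and not by a rule on their values, though with earlier results of these data known. Their rows came from the annotated rows of chromosomes 1 to 25 in a table of gene expression in embryonic eyes. All 9 were present, each in 1 row, among 31428 such rows and 37114 rows in the whole table. Of the 9, 8 held reads in at least 1 library, 5 reached the filter on low values, and 0 passed the test between the eyes of WT embryos and those labelled *flrt2*-KO.

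The first macrophages of the zebrafish embryo arise at the yolk, spread through the tissues and enter the eye and the brain, where they settle as microglia. They engulf dying neurons and digest them in lysosomes, and dying cells are known to attract them. In RNA of the whole eye the RNA of phagocytes is diluted by that of retina, lens and skin, so their genes give low values there.

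Libraries were made from eyes of embryos at 36 hours post fertilization (hpf), about 40 pooled eyes per library, with 4 libraries of the AB strain labelled wildtype (WT) and 4 labelled *flrt2* mutant (*flrt2*-KO). The *flrt2*-KO line carries a 20 bp deletion in *flrt2* made with Cas9 and a guide RNA, and the titles of its libraries begin with CH1359. Per the methods this line was also bred in the AB background, and crosses of heterozygotes gave the homozygous mutants. The label *flrt2* mutant does not name the zygosity. The methods name no treatment of the embryos used for RNA, the labels name the tissue retina where the methods name eyes, and the study's Results give the age in days, so the age of the methods was used. The comparison asks whether phagocyte genes were higher in the *flrt2*-KO eyes, for which the study reports added cell death.

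Values are FPKM, fragments scaled by gene length and library size, so levels may be compared between genes. The libraries held 13423932 to 14835885 reads, and 1 FPKM of a short gene is a small number of reads, which are therefore given for the lowest genes. *flrt2* itself was not lower in the libraries labelled *flrt2*-KO, at 2.25 to 2.55 FPKM in WT and 2.80 to 3.99 FPKM in *flrt2*-KO (log2 fold change 0.40, limma adjusted p = 0.110), so each direction below rests on the labels, and *flrt2*-KO names the libraries so labelled. Markers of the retina were well expressed in all 8 libraries. *six3b*, a homeobox gene of the eye field and the retina, had 51.7 to 88.0 FPKM, and 14 of 14 retina genes examined passed the filter on low values. Of these *six3a* was higher, *six6b* and *atoh7* were lower, and 11 did not pass the test. Once reads of alternate contigs were added, *six3a* no longer passed and its log2 fold change turned from 0.95 to -0.13 (limma adjusted p = 0.573). *six6b* (limma adjusted p = 0.0127 to 0.118 over the alternatives) did not pass without WT 12_16, 1_19 or 1_8, without *flrt2*-KO 12_16, 1_19 or 1_8_ysy, without both 12_16 libraries, without the filter or without the trended and robust prior. It also did not pass with a replicate block that joined 1_8 and 1_8_ysy (limma adjusted p = 0.0541). The labels do not say that the libraries came from separate clutches, so p-values measure the spread between these libraries.

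Across all 9 genes the groups overlapped. By limma on log2(FPKM + 0.5), over the 21012 rows that reached 0.5 FPKM in 4 or more of the 8 libraries, 0 of the 5 genes that passed this filter were higher and 0 were lower at an adjusted p under 0.05, and 0 had an unadjusted p under 0.05. Among all rows tested 8.28% were higher, 7.37% were lower and 15.6% passed in either direction. The groups did not overlap for 0 of the 5 tested genes, against 11.4% of all rows tested with every *flrt2*-KO library higher and 9.76% with every one lower. *coro1a*, *ptprc*, *mpeg1.1* and *cxcr3.2* were not among the rows tested, and all of these but *ptprc* stood at 0 in libraries of both groups. The median log2 fold change of the 5 genes was 0.27, with 4 positive, and that of all rows tested was -0.01. Limma voom on the reads recovered from the table also called 0 of the 5 genes, and 0 of 8 without the filter. In a bulk sample fewer phagocytes and less RNA per phagocyte cannot be told apart.

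**Figure D1:**
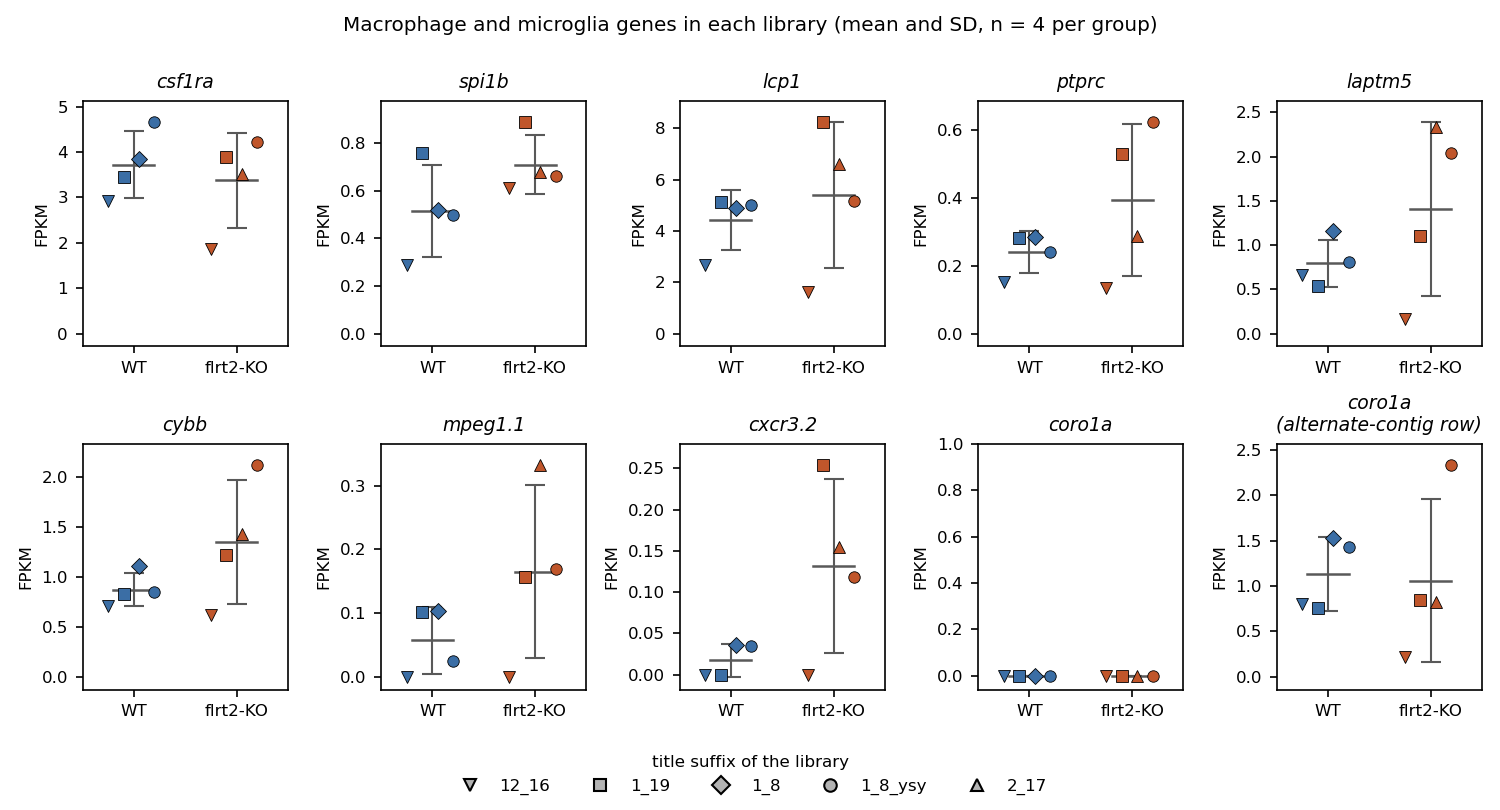
FPKM of the 9 genes, and of the alternate-contig row of *coro1a*, in each library (vertical axis, a scale per gene). Marker shape gives the title suffix of the library, and bars give mean and SD (n = 4 per group). The library *flrt2*-KO 12_16, a downward triangle, is the lowest or tied at 0 in 7 of the 8 genes with reads.

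The spread within the *flrt2*-KO group was wide, with 1 library apart from the other 3. In 5 of the 9 genes, *lcp1*, *ptprc*, *cybb*, *mpeg1.1* and *cxcr3.2*, 3 *flrt2*-KO libraries lay above every WT library while the fourth, 12_16, did not. Among all rows tested 13.5% had these 3 libraries above every WT library, whatever the level of the fourth. That share takes in the 11.4% with every *flrt2*-KO library above, so it is not a like share for these genes. In *lcp1*, *ptprc* and *cybb*, 3 of the 9 genes, *flrt2*-KO 12_16 lay at the same time below every WT library, an arrangement found in 0.295% of all rows tested. This arrangement was picked out after the values were seen, and *ptprc*, *mpeg1.1* and *cxcr3.2* were not among the rows tested. In *lcp1* and *ptprc* it rests on narrow margins. In *lcp1*, *flrt2*-KO 1_8_ysy had 5.149 FPKM (158 reads) and WT 1_19, the highest WT library, 5.143 FPKM (175 reads). In *ptprc*, *flrt2*-KO 2_17 had 0.289 FPKM (17 reads) and WT 1_8, the highest WT library, 0.284 FPKM (18 reads).

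*csf1ra* codes for a receptor of colony-stimulating factor that macrophages and microglia need, and in zebrafish it also acts in the yellow pigment cells, the xanthophores. It lies on chromosome 14, 3143337-3180947 of GRCz11, the build of all positions given here. It had 2.92, 3.46, 3.84 and 4.66 FPKM in WT 12_16, 1_19, 1_8 and 1_8_ysy. It had 1.87, 3.90, 3.50 and 4.22 FPKM in *flrt2*-KO 12_16, 1_19, 2_17 and 1_8_ysy. The groups overlapped, with *flrt2*-KO 12_16 below every other library. The log2 fold change was -0.16 (SE 0.23, limma adjusted p = 0.707), with a 95% interval of 0.631- to 1.28-fold on the scale of FPKM + 0.5. It turned to 0.065 without *flrt2*-KO 12_16 (limma adjusted p = 0.859). Between libraries of the same suffix the log2 difference was -0.53 for 12_16, 0.15 for 1_19 and -0.13 for 1_8_ysy, so no direction held over the 3 pairs.

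The second receptor gene, *csf1rb*, which in zebrafish serves blood-forming cells and microglia, stayed below the filter, with 5 to 17 reads per WT library and 3 to 17 per *flrt2*-KO library. Of the ligands, *il34*, which guides macrophages into the zebrafish brain, had 1.92 to 2.27 FPKM in WT and 2.62 to 3.15 FPKM in *flrt2*-KO. The groups did not overlap, but the log2 fold change of 0.42 (SE 0.14) missed the threshold (limma adjusted p = 0.0676). It passed in 1 of 23 alternatives, without an intensity trend and robust prior (limma adjusted p = 0.0377). *csf1a* and *csf1b*, the other ligands, had log2 fold changes of 0.00 (limma adjusted p = 0.995) and 0.04 (limma adjusted p = 0.930). Of the 3 ligands 0 passed the test.

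*spi1b*, on chromosome 7, 32644673-32659353, codes for Pu.1, the transcription factor that directs blood precursors to the myeloid fate. It had 0.288, 0.759, 0.520 and 0.498 FPKM in WT 12_16, 1_19, 1_8 and 1_8_ysy. It had 0.610, 0.889, 0.678 and 0.661 FPKM in *flrt2*-KO 12_16, 1_19, 2_17 and 1_8_ysy. This was the gene in which WT 12_16, and not *flrt2*-KO 12_16, was the lowest library, and only *flrt2*-KO 1_19 lay above every WT library. The values rest on 11 to 32 reads per library. Its log2 fold change was 0.27 (SE 0.19, limma adjusted p = 0.401), and the difference was positive in each of the 3 pairs of like suffix (0.49, 0.14 and 0.22). Its span shares 528 bp with a neighbouring gene, and whether counting used the strand is not given in the sources used here. The paralog *spi1a* had a log2 fold change of 0.09 (limma adjusted p = 0.875) and was again lowest in *flrt2*-KO 12_16.

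*lcp1* codes for L-plastin, an actin-bundling protein of white blood cells, and lies on chromosome 9, 56251000-56272465. It was the highest of the 9 genes. It had 2.67, 5.14, 4.89 and 5.03 FPKM in WT 12_16, 1_19, 1_8 and 1_8_ysy, where 12_16 stood apart from the other 3. It had 1.61, 8.25, 6.62 and 5.15 FPKM in *flrt2*-KO 12_16, 1_19, 2_17 and 1_8_ysy. Both 12_16 libraries were thus low. The other 3 *flrt2*-KO libraries all exceeded the highest WT value, 1_8_ysy only narrowly (5.149 against 5.143 FPKM). The log2 fold change was 0.12 (SE 0.40, limma adjusted p = 0.880), with a 95% interval of 0.589- to 2.0-fold. It was 0.55 without *flrt2*-KO 12_16 (limma adjusted p = 0.177) and turned negative without WT 12_16 (-0.08), *flrt2*-KO 1_19 (-0.13) or *flrt2*-KO 2_17 (-0.03). A row on an unplaced contig with the same protein match held 64 reads in WT and 60 in *flrt2*-KO, and it also did not pass (limma adjusted p = 0.833).

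*coro1a*, on chromosome 3, 30926364-30941362, codes for coronin 1A, an actin regulator of white blood cells. It was listed at 0 reads in all 8 libraries. An unannotated row on an alternate contig of chromosome 3, with the same start and the same protein match, held 133 reads in WT and 113 in *flrt2*-KO. That row had 0.800, 0.759, 1.53 and 1.43 FPKM in WT 12_16, 1_19, 1_8 and 1_8_ysy. It had 0.222, 0.848, 0.826 and 2.33 FPKM in *flrt2*-KO 12_16, 1_19, 2_17 and 1_8_ysy, so the *flrt2*-KO libraries gave both the lowest and the highest value. Its log2 fold change was -0.20 (SE 0.37, limma adjusted p = 0.764). Other genes that many cells use, such as *crk*, *cd63* and *atp6v0d1*, were listed at 0 in the same way, with reads on an alternate contig.

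*ptprc*, on chromosome 22, 22977268-23067859, codes for Cd45, the phosphatase found on white blood cells. It stayed below the filter. It had 10, 18, 18 and 16 reads in WT 12_16, 1_19, 1_8 and 1_8_ysy, and 8, 33, 17 and 36 reads in *flrt2*-KO 12_16, 1_19, 2_17 and 1_8_ysy. In FPKM these were 0.24 ± 0.0621 (SD, n = 4) in WT and 0.394 ± 0.224 (SD, n = 4) in *flrt2*-KO. The groups overlapped through *flrt2*-KO 12_16, the lowest library of all, and a two-sided exact permutation test gave p = 0.286, where 4 against 4 libraries can give no p below 0.0286.

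*laptm5* codes for a lysosomal membrane protein of blood cells and lies on chromosome 19, 43297546-43309596. It had 0.667, 0.537, 1.16 and 0.815 FPKM in WT 12_16, 1_19, 1_8 and 1_8_ysy. It had 0.164, 1.1, 2.33 and 2.04 FPKM in *flrt2*-KO 12_16, 1_19, 2_17 and 1_8_ysy, which rest on 2, 14, 28 and 24 reads. In the *flrt2*-KO group 2 libraries lay above every WT library and 1 below. The log2 fold change was 0.38 (SE 0.41, limma adjusted p = 0.586), with a 95% interval of 0.696- to 2.45-fold. Without *flrt2*-KO 12_16 it was 0.83 (limma adjusted p = 0.0721), and without both 12_16 libraries 0.78 (limma adjusted p = 0.137). Neither passed. Of the related lysosomal genes expressed beyond blood cells, *laptm4a* had a log2 fold change of -0.11 (limma adjusted p = 0.545). *laptm4b* was lower in every *flrt2*-KO library, at 1.37 to 2.86 FPKM in WT and 0.622 to 0.938 FPKM in *flrt2*-KO (log2 fold change -0.87, limma adjusted p = 0.0204). That call was lost without WT 1_8_ysy, *flrt2*-KO 12_16, *flrt2*-KO 1_19 or both 12_16 libraries, over a range of limma adjusted p from 0.0117 to 0.106. It was also lost with a replicate block that joined 1_8 and 1_8_ysy (limma adjusted p = 0.0515).

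*cybb*, on chromosome 11, 29795155-29818866, codes for the catalytic subunit of the phagocyte NADPH oxidase, which makes superoxide against engulfed material. It had 0.711, 0.830, 1.11 and 0.847 FPKM in WT 12_16, 1_19, 1_8 and 1_8_ysy. It had 0.621, 1.22, 1.43 and 2.12 FPKM in *flrt2*-KO 12_16, 1_19, 2_17 and 1_8_ysy. Once more 3 *flrt2*-KO libraries were above every WT library and 12_16 was below them all. Its log2 fold change was 0.37 (SE 0.25, limma adjusted p = 0.368), with a 95% interval of 0.879- to 1.90-fold. It was 0.59 without *flrt2*-KO 12_16 (limma adjusted p = 0.110). Its span shares 478 bp with *xk*.

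Of its partner genes 3 were tested and 0 passed. *cyba*, the other membrane subunit of the oxidase, had 1.90 to 2.95 FPKM in WT and 1.04 to 2.12 FPKM in *flrt2*-KO (log2 fold change -0.49, limma adjusted p = 0.135), the opposite sign to *cybb*. *ncf1*, a cytosolic subunit, had 0.19 (limma adjusted p = 0.791) and *rac2*, the small GTPase that completes the complex in white blood cells, had -0.08 (limma adjusted p = 0.830). *ncf4*, a further cytosolic subunit, was below the filter and not tested. It had 0 reads in each WT library and 0, 6, 5 and 4 reads in *flrt2*-KO 12_16, 1_19, 2_17 and 1_8_ysy. The groups thus overlapped at 0. Taking 3 reads as the most that 0 reads in the WT libraries together allow, the summed reads give a ratio of 5.44. That ratio leaves out the counting error of the 15 *flrt2*-KO reads. The exact 95% interval of the ratio of summed reads, which covers the counting error of both groups, begins at 3.90-fold. Neither value takes in the spread between libraries, so no difference between the groups is read from them. Of the 4 oxidase genes tested, *cybb* included, 0 passed, the median log2 fold change was 0.05, and all 4 were lowest in *flrt2*-KO 12_16.

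*mpeg1.1*, on chromosome 8, 29710110-29713621, codes for perforin-2, and its promoter drives the common reporters of zebrafish macrophages. It had 0, 4, 4 and 1 reads in WT 12_16, 1_19, 1_8 and 1_8_ysy, and 0, 6, 12 and 6 reads in *flrt2*-KO 12_16, 1_19, 2_17 and 1_8_ysy. In FPKM these were 0.0573 ± 0.0529 (SD, n = 4) and 0.165 ± 0.136 (SD, n = 4), with a two-sided exact permutation p = 0.20. The macrophage marker was thus at 0 in both 12_16 libraries, which allows up to 3 reads, or 0.0738 to 0.0847 FPKM over the libraries. The WT reads summed to 9 and the *flrt2*-KO reads to 24, a ratio of 2.90 (95% interval 1.3 to 7.1 for counting error only). Its paralog *mpeg1.2* was higher in level and went the other way, at 0.509 to 1.16 FPKM in WT and 0.327 to 0.651 FPKM in *flrt2*-KO (log2 fold change -0.44, limma adjusted p = 0.19). *mpeg1.3* was listed at 0. How reads that match several copies of the *mpeg1* family were counted is not given in the sources used here, so the share of each copy is uncertain.

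*cxcr3.2*, on chromosome 16, 11818126-11825303, codes for a chemokine receptor by which zebrafish macrophages move to sites of infection. It had 0, 0, 1 and 1 reads in WT 12_16, 1_19, 1_8 and 1_8_ysy, and 0, 7, 4 and 3 reads in *flrt2*-KO 12_16, 1_19, 2_17 and 1_8_ysy. The 3 *flrt2*-KO libraries with reads lay above every WT library. The two-sided exact permutation test gave p = 0.143, with 0.0175 ± 0.0202 FPKM in WT and 0.132 ± 0.105 FPKM in *flrt2*-KO (SD, n = 4). The ratio of reads was 7.62, with a 95% interval of 1.75 to 69.1 for counting error only. Without the filter it was the gene of the 9 with the smallest p, at an unadjusted 0.0434 and an adjusted 0.192 by limma, and 0.0544 and 0.212 by limma voom. The paralog *cxcr3.1* had 2 reads in all, both in *flrt2*-KO 1_8_ysy, and *cxcr3.3* had 0 to 14 reads per WT library and 6 to 18 per *flrt2*-KO library. The 5 ligand genes of the *cxcl11* family had 1 read in all and 0 passed the filter.

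**Figure D2:**
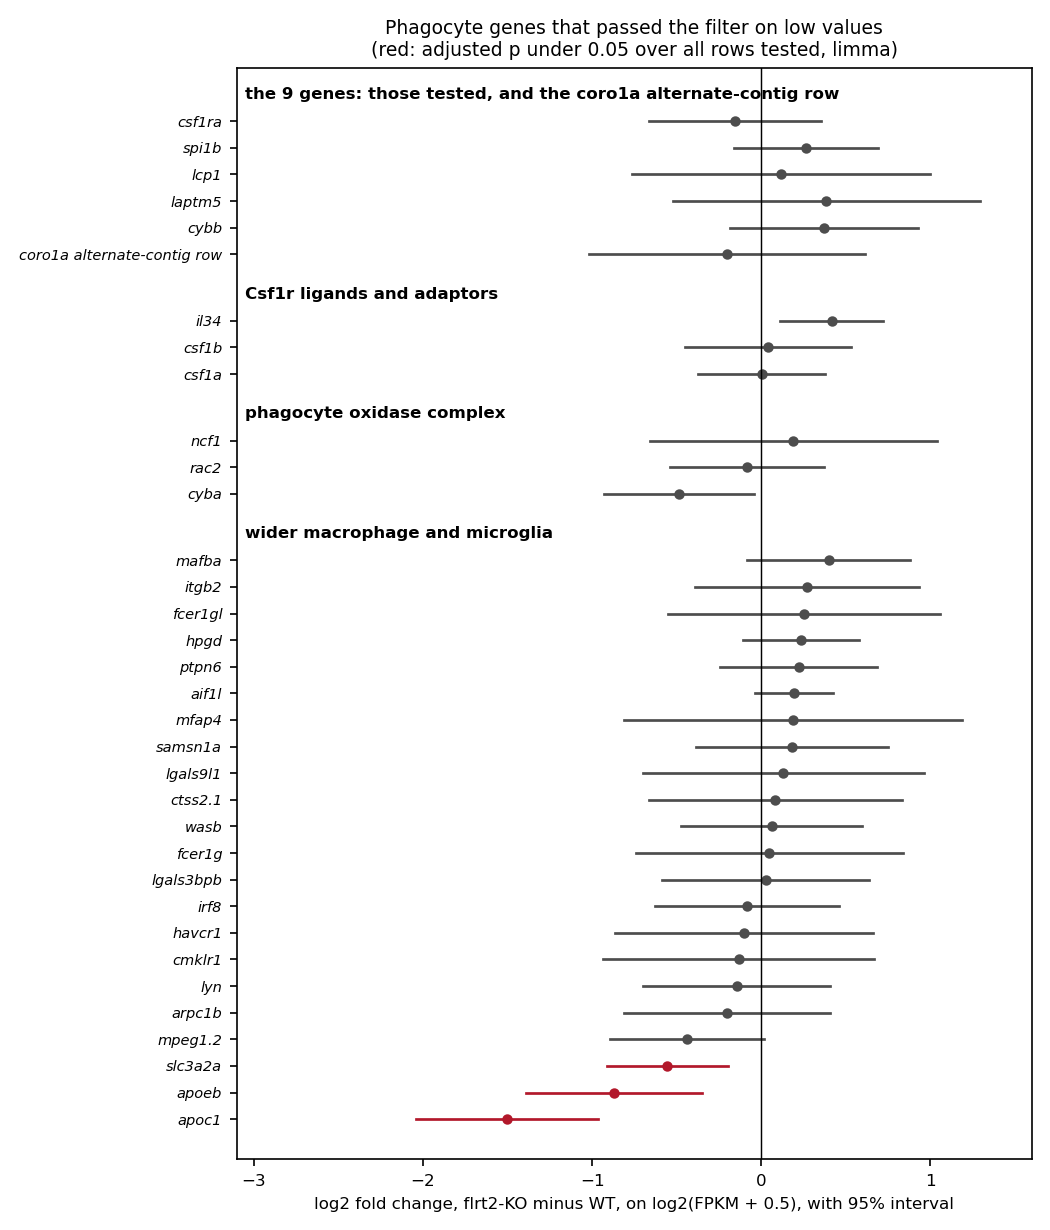
Log2 fold change, *flrt2*-KO minus WT, on log2(FPKM + 0.5), with 95% interval, for the tested genes of the 9, the alternate-contig row of *coro1a*, the ligands of Csf1r, the oxidase partners and the wider list of macrophage and microglia genes. Red marks limma adjusted p under 0.05, which *slc3a2a*, *apoeb* and *apoc1* passed, all with negative values, while each interval of the 5 tested genes, and that of the *coro1a* row, includes 0.

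A wider list of macrophage and microglia genes gave 0 higher and 3 lower among 23 tested of 46 found, with 20 not passed. Their median log2 fold change was 0.05, against -0.01 for all rows tested. *apoc1*, an apolipoprotein gene of microglia that yolk and other tissues also express, was lower, at 9.34 to 16.6 FPKM in WT and 3.49 to 7.45 FPKM in *flrt2*-KO (log2 fold change -1.50, SE 0.24, limma adjusted p = 0.00234). *apoeb*, also used as a microglia marker and also found in yolk cells, had 31.9 to 42.0 FPKM in WT and 11.3 to 27.7 FPKM in *flrt2*-KO (log2 fold change -0.87, SE 0.23, limma adjusted p = 0.0315). *slc3a2a*, a partner of amino acid transporters, fell by 0.56 on the log2 scale (SE 0.16, limma adjusted p = 0.0409), which did not pass with a block for the title suffix (limma adjusted p = 0.0772). The *apoc1* call held over all 23 alternatives. That of *apoeb* was lost without any 1 WT library, without *flrt2*-KO 1_19, without both 12_16 libraries or without the filter (range of limma adjusted p 0.0108 to 0.0858). That of *slc3a2a* was lost without WT 12_16, 1_19 or 1_8, *flrt2*-KO 12_16, 1_19 or 1_8_ysy, or both 12_16 libraries. It was also lost without the filter or without the trended and robust prior (range of limma adjusted p 0.0209 to 0.173).

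Genes of this list with fewer other sources in the eye had both signs. *irf8*, a transcription factor that macrophages require, had a log2 fold change of -0.09 (limma adjusted p = 0.858). *mfap4*, a macrophage marker of the zebrafish embryo, had 0.19 (limma adjusted p = 0.828), and *itgb2*, an integrin subunit of white blood cells, had 0.27 (limma adjusted p = 0.604). In *itgb2* and *samsn1a* 3 *flrt2*-KO libraries were above every WT library and *flrt2*-KO 12_16 was below, as in *lcp1* and *cybb*. *p2ry12*, a marker of settled microglia, had 2 to 6 reads per WT library and 2, 13, 11 and 8 reads in *flrt2*-KO 12_16, 1_19, 2_17 and 1_8_ysy, and *marco*, a scavenger receptor, had 0 reads in *flrt2*-KO 12_16 and 11 to 13 in the other 3, against 4 to 12 in WT. Other genes of the list below the filter went the other way. *havcr2* had 9 to 12 reads per WT library and 3 to 7 per *flrt2*-KO library. Its groups did not overlap, as in the 9.76% of all rows tested with every *flrt2*-KO library lower. Without the filter it did not pass (limma adjusted p = 0.144). *tyrobp* had 21 reads in WT and 12 in *flrt2*-KO, with overlap. Of the list, 6 genes were listed at 0 in all 8 libraries, among them *slc7a7*, a transporter that microglia need, and the complement genes *c1qa*, *c1qb* and *c1qc*.

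**Figure D3:**
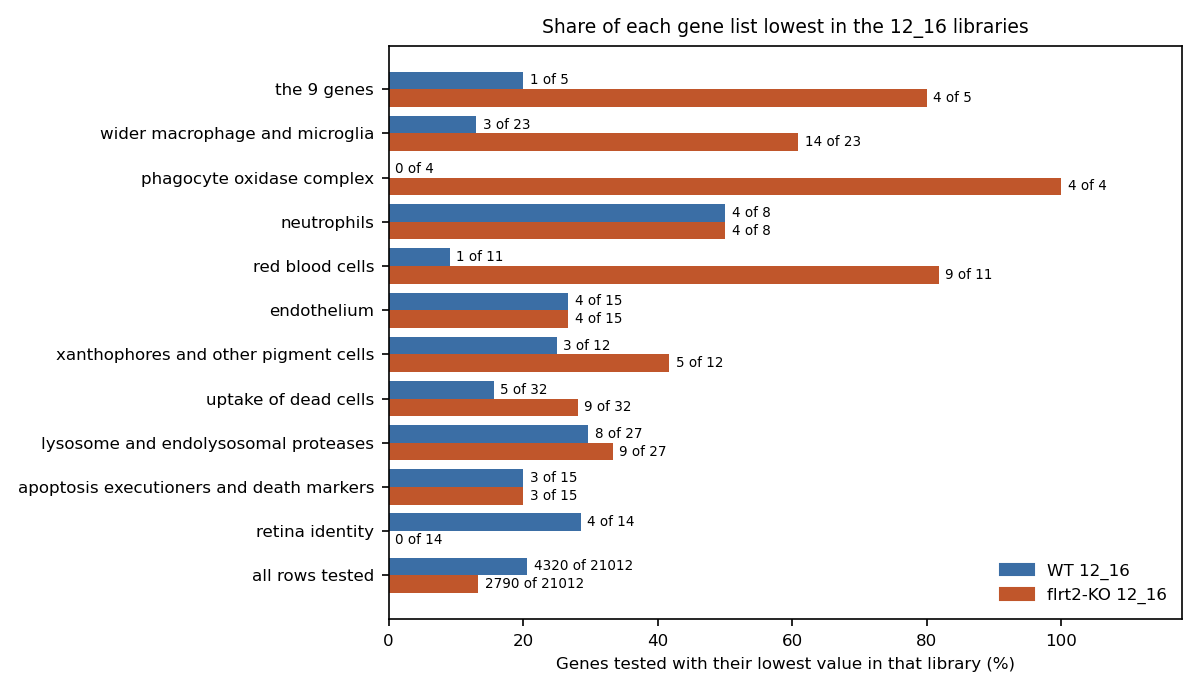
Share of the tested genes of each list that had their lowest value in WT 12_16 (blue) or *flrt2*-KO 12_16 (orange), in percent, with counts beside the bars. *flrt2*-KO 12_16 is the lowest library for 14 of 23 genes of the wider phagocyte list and 9 of 11 red cell genes, against 2790 of 21012 rows in all and 0 of 14 retina genes.

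The low library was not low in general. *flrt2*-KO 12_16 held the lowest value of 13.3% of all rows tested, and WT 12_16 of 20.6%. It was the lowest library for 4 of the 5 tested genes of the 9, for 14 of 23 of the wider list, for 4 of 8 neutrophil genes and for 9 of 11 red cell genes. It was the lowest for 4 of 15 endothelial genes, 5 of 12 pigment cell genes and 0 of 14 retina genes. It was also the lowest for 2 of 4 thrombocyte genes, 9 of 27 lysosomal genes and 9 of 32 genes of uptake of the dead. Of the 7 paralogs tested it was the lowest for 5, among them *laptm4a* and *laptm4b*, which are expressed beyond blood cells. The summed level of the 9 genes was 5.01 FPKM in *flrt2*-KO 12_16 and 15.1 to 16.3 FPKM in the other *flrt2*-KO libraries, against 7.41 FPKM in WT 12_16 and 11.11 to 12.15 FPKM in the other WT libraries. Most of this sum comes from *lcp1* and *csf1ra*, at 1.61 and 1.87 FPKM in *flrt2*-KO 12_16 and 8.25 and 3.90 FPKM in *flrt2*-KO 1_19. *coro1a* adds 0 to it. The total of *flrt2*-KO 12_16, 13876902 reads, lay within the range of the others. Without it 0 of the 5 genes passed, against 11.2% of all rows tested in that fit, and the smallest limma adjusted p was 0.0721. Of the 5 genes, 3 had an unadjusted p under 0.05. Without both 12_16 libraries 0 passed, against 8.26% of all rows tested, and 2 had an unadjusted p under 0.05. The share of all rows under that unadjusted threshold was not computed. These genes were low in *flrt2*-KO 12_16, so leaving it out raises their log2 fold changes by itself, and no rise is read from these counts. What the suffix stands for is not stated, and its part in these values was not tested.

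Over the libraries *csf1ra* was set beside genes of pigment cells and of phagocytes, on log2(FPKM + 0.5). It varied with *aox5*, an enzyme gene of xanthophores, at Pearson's r = 0.906 and Spearman's rho = 0.929 over 8 libraries (exact permutation p = 0.0007 and 0.0022, adjusted over 14 relations 0.0097 and 0.0156). Without the 2 libraries farthest from the median of *csf1ra*, WT 1_8_ysy and *flrt2*-KO 12_16, r was 0.767. With *gch2*, an enzyme gene of the yellow pigment, r was 0.865 and rho 0.833 (exact permutation p = 0.0021 and 0.0154, adjusted 0.0109 and 0.0718), and 0.793 without these 2 libraries. With *lcp1* r was 0.823 and rho 0.548 (exact permutation p = 0.0164 and 0.171, adjusted 0.046 and 0.218). Without the 2 libraries r was 0.668. With *xdh*, a further gene of the pigment cell list, r was 0.635 and rho 0.643 (exact permutation p = 0.122 and 0.0962, adjusted 0.172 and 0.168). Without the 2 libraries that r was -0.047, so the pigment cell genes differed. With *cybb* r was 0.584 and rho 0.690 (exact permutation p = 0.129 and 0.0694, adjusted 0.172 and 0.139), and r was 0.816 without the 2 libraries. With *laptm5* r was 0.671 and rho 0.571 (exact permutation p = 0.0674 and 0.151, adjusted 0.135 and 0.212), and r was 0.553 without them. With *spi1b* r was 0.160 and rho 0.071 (exact permutation p = 0.670 and 0.882, adjusted 0.722 and 0.882), and r was 0.664 without them. These pairs were chosen after the values were seen, groups of 4 are too small for a value of their own, and the libraries share their scaling. Neither *aox5* (log2 fold change -0.00, limma adjusted p = 0.999) nor *gch2* (0.06, limma adjusted p = 0.847) passed the test between groups.

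*cybb* and *laptm5*, both genes of the phagocyte's digestive route, varied together at r = 0.896 and rho = 0.929 (exact permutation p = 0.0023 and 0.0022, adjusted 0.0109 and 0.0156). Without *flrt2*-KO 12_16 and 1_8_ysy, the 2 libraries farthest from the median of *cybb*, r was 0.908. *lcp1* varied with *gch2* as well (r = 0.885, rho = 0.786, exact permutation p = 0.0042 and 0.0279, adjusted 0.0148 and 0.0977), but r was 0.457 without the 12_16 libraries, on which that relation rests. The other 9 of the 14 relations, among them *csf1ra* with *xdh* and with *cybb*, had an adjusted p over 0.05 for both measures. All 14 pairs were chosen after the values were seen, and the adjustment covers these pairs alone. The permutations took no account of group or title suffix, so the p-values describe the pairs and test no relation set in advance.

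**Figure D4:**
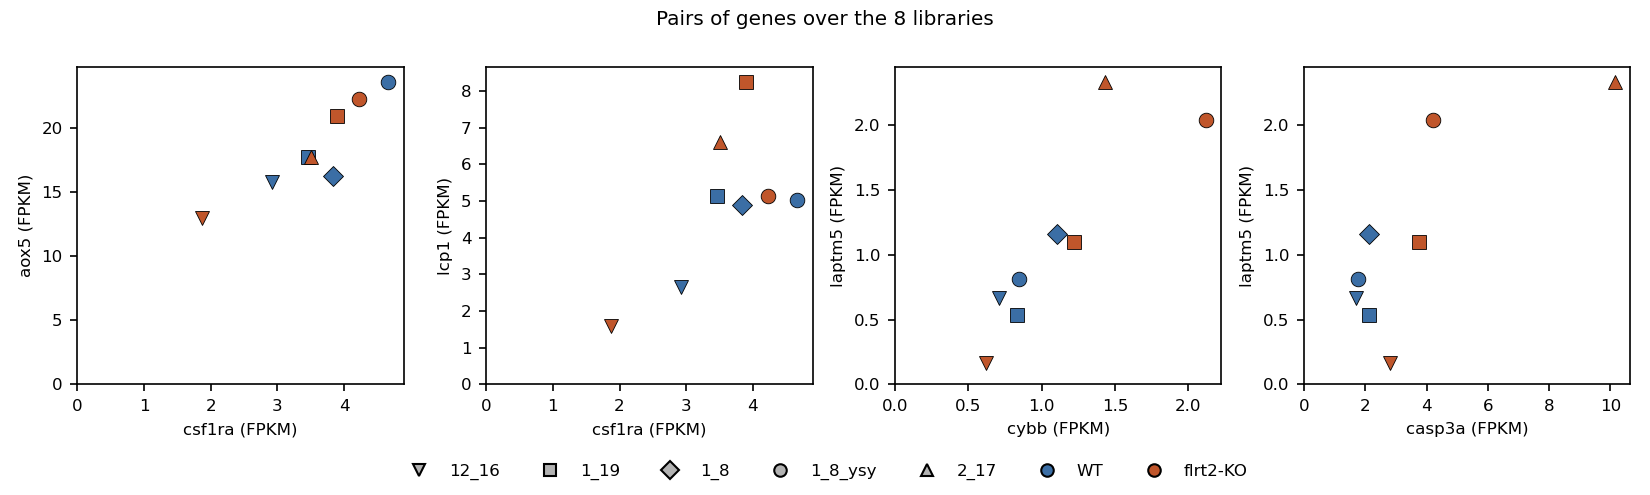
FPKM of pairs of genes over the 8 libraries, with color for the group and shape for the title suffix. From left to right, with r on log2(FPKM + 0.5), are *csf1ra* with *aox5* (r = 0.906), *csf1ra* with *lcp1* (r = 0.823), *cybb* with *laptm5* (r = 0.896) and *casp3a* with *laptm5*, where *flrt2*-KO 2_17 is highest in both and *flrt2*-KO 12_16 lowest in *laptm5*.

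Over the libraries, the genes most like the mean of the 5 tested genes, by Pearson's r of deviations from the group means among 16537 genes, were *cx32.2* (0.974), *f10* (0.974), *si:ch73-334d15.1* (0.974), *pdap1b* (0.971) and *MFAP4 (1 of many)* (0.970). *cx32.2* had 0 FPKM in *flrt2*-KO 12_16 and 0.779 to 1.082 FPKM in the other 3. The row named *MFAP4 (1 of many)*, whose name it shares with the macrophage marker *mfap4*, had 0 FPKM in *flrt2*-KO 12_16, 1.11 to 1.46 FPKM in the other 3 and 0.675 to 1.16 FPKM in WT. *f10*, the gene of a clotting factor, had 5.54 to 10.3 FPKM in WT and 0.132 to 1.93 FPKM in *flrt2*-KO. In each of these genes *flrt2*-KO 12_16 was the lowest of the 8 libraries. They are the highest of 16537 values of r over 8 libraries, with no p computed, so they describe the pattern and test nothing.

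For genes of cell death, *casp3a*, an executioner caspase, was higher in every *flrt2*-KO library. It had 1.69, 2.13, 2.13 and 1.76 FPKM in WT 12_16, 1_19, 1_8 and 1_8_ysy, and 2.81, 3.77, 10.1 and 4.20 FPKM in *flrt2*-KO 12_16, 1_19, 2_17 and 1_8_ysy. Its log2 fold change was 1.09 (SE 0.31, limma adjusted p = 0.0371). That call was lost without any 1 WT library, without *flrt2*-KO 1_19 or 1_8_ysy, without both 12_16 libraries or without the filter (range of limma adjusted p 0.0124 to 0.0887). Within the *flrt2*-KO group, *laptm5* had the same order of libraries in FPKM as *casp3a*, highest in 2_17, then 1_8_ysy, then 1_19, and lowest in 12_16. *mpeg1.1* had this order in FPKM as well, at 0.332, 0.169, 0.157 and 0 FPKM. It rests on few reads, with 6 in each of 1_8_ysy and 1_19. The other 6 genes with reads had other orders, with 12_16 lowest in each, and *lcp1* was highest in 1_19 and *cybb* in 1_8_ysy. *laptm5* and *mpeg1.1* were thus singled out of 8 genes with reads for their order. As 12_16 was the lowest *flrt2*-KO library in *casp3a* and in all 8, only the order of the remaining libraries could differ. With 4 libraries no correlation was computed, and whether these genes follow *casp3a* was not tested. Of the 15 genes tested in this list 1 was higher, and *baxb*, a Bax-related gene, was lower (log2 fold change -1.26, limma adjusted p = 0.00167), with 13 not passed and a median of 0.02.

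The genes by which cells take up the dead showed 0 higher and 1 lower among 32 tested, with a median log2 fold change of -0.07. *anxa1b*, an annexin gene, was lower (-0.56, limma adjusted p = 0.0236, over a range of 0.0101 to 0.0765 in the alternatives, lost without WT 1_19, WT 1_8_ysy, *flrt2*-KO 12_16 or *flrt2*-KO 1_19). *mertka*, a receptor for dying cells, had -0.13 (limma adjusted p = 0.790), and *havcr1*, a receptor for phosphatidylserine, had -0.10 (limma adjusted p = 0.879). Of 27 lysosomal genes tested 0 were higher and 2 were lower, with a median of -0.13. *ctsd*, the gene of cathepsin D, had 24.0 to 33.1 FPKM in WT and 5.77 to 11.2 FPKM in *flrt2*-KO (log2 fold change -1.79, SE 0.20, limma adjusted p = 0.000319). *ctsba*, a cathepsin B gene, had 33.9 to 40.2 FPKM in WT and 20.6 to 29.4 FPKM in *flrt2*-KO (log2 fold change -0.65, limma adjusted p = 0.00753). Both calls held over all 23 alternatives, and both genes are expressed well beyond phagocytes.

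Of 12 inflammation genes tested 0 were higher and 1 was lower, with a median of -0.09. *nos2b*, a nitric oxide synthase gene, was lower (-0.53, limma adjusted p = 0.0442), but not with a block for the title suffix (limma adjusted p = 0.0683) and not without 7 of the 8 libraries in turn, all but *flrt2*-KO 2_17. It also did not pass without both 12_16 libraries, without the filter, with quantile normalization or with alternate-contig reads added. *il1b*, the cytokine that activated macrophages release, stayed below the filter, with 8 to 13 reads per WT library and 6, 43, 49 and 5 reads in *flrt2*-KO 12_16, 1_19, 2_17 and 1_8_ysy. The library highest in *cybb*, 1_8_ysy, was thus the lowest of its group in *il1b*. *acod1*, an enzyme gene of activated macrophages, had 18 reads in each of the same 2 libraries, 0 in the other 2 of the group and 1 to 9 in WT.

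Markers of other cells of the eye were examined beside these. Of 8 neutrophil genes tested 0 passed, with a median of -0.06, a summed level of 13.6 to 30.8 FPKM in WT and 14.8 to 27.0 FPKM in *flrt2*-KO. *mpx*, the neutrophil peroxidase, had 3.16 to 8.96 FPKM in WT and 1.45 to 5.81 FPKM in *flrt2*-KO (log2 fold change -0.62, limma adjusted p = 0.307), and *lyz* had 6 reads in all, in WT. *lcp1*, *ptprc*, *coro1a*, *cybb* and *laptm5* are also expressed in neutrophils, and the part of these cells in their values was not tested. Of 6 lymphoid and stem cell genes tested 0 passed (median -0.02), with *lck*, *cd4-1* and *cd8a* listed at 0 and summed levels of 14.9 to 21.0 FPKM in WT and 14.8 to 15.8 FPKM in *flrt2*-KO. Of 4 thrombocyte genes 0 passed (median -0.21, *mpl* listed at 0), at 22.1 to 43.1 FPKM in WT and 17.9 to 27.9 FPKM in *flrt2*-KO. Of 12 pigment cell genes 0 passed (median -0.02), at 277 to 378 FPKM in WT and 265 to 375 FPKM in *flrt2*-KO.

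Red cell genes gave 0 higher and 4 lower among 11 tested, with a median of -0.48 and a summed level of 1589 to 2673 FPKM in WT and 674 to 1475 FPKM in *flrt2*-KO. The globin genes *hbbe1.1* (-1.71, limma adjusted p = 0.00325), *hbbe2* (-1.08, limma adjusted p = 0.0117), *hbae3* (-1.16, limma adjusted p = 0.0146) and *hbbe3* (-1.13, limma adjusted p = 0.0455) were lower. *hbbe2* and *hbbe3* no longer passed with alternate-contig reads added (limma adjusted p = 0.0758 and 0.152), *hbae3* and *hbbe2* not without both 12_16 libraries (limma adjusted p = 0.0774 and 0.0776), and *hbbe3* also not without WT 1_19, 1_8 or 1_8_ysy or *flrt2*-KO 12_16, 1_19 or 1_8_ysy (range of limma adjusted p 0.001 to 0.152). The call of *hbbe3* was also lost without the filter, without the trended and robust prior or for annotated rows of the chromosomes alone. Endothelial genes gave 0 higher and 2 lower among 15 tested, with a median of -0.07 and 100.7 to 125.7 FPKM in WT and 96.8 to 112 FPKM in *flrt2*-KO. *tek*, a receptor of vessels, was lower (-0.81, limma adjusted p = 0.0175, lost with a block for the suffix at 0.0880 and without WT 1_8). *egfl7*, secreted by vessels, was lower (-0.54, limma adjusted p = 0.0409, lost with the block at 0.153 and without any 1 library other than WT 12_16). That call was also lost with the block that joined 1_8 and 1_8_ysy (limma adjusted p = 0.0933) and without both 12_16 libraries. It did not hold without the filter, with quantile normalization or by voom without the filter. Of the 7 paralogs of the 9 genes tested, *laptm4b* was lower, 0 were higher and 6 did not pass, with a median of -0.12.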

How the data were processed

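RNA of eyes was sequenced in 4 WT and 4 *flrt2*-KO libraries. The methods name the NEBNext Ultra kit, the labels TruSeq. Per the submitters' processing notes reads were aligned with HISAT2 2.0.5 and counted with featureCounts 1.5.0-p3, and the authors deposited 1 table of FPKM values on GRCz11. Reads were recovered from the product of FPKM and gene length. It was divided by the smallest such product above 0 in the same library, which was taken as 1 read. The result was whole for 100% of values (tolerance 1e-06). The library total behind the FPKM was 0.93 to 1.07 times the sum of the recovered reads.

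Values were tested as log2(FPKM + 0.5), which understates changes of low genes, with limma 3.58.1 in R 4.3.3 (intensity trend, robust prior, Benjamini-Hochberg adjustment over 21012 rows reaching 0.5 FPKM in 4 or more libraries). For *mpeg1.1*, *cxcr3.2* and *ptprc*, which lay below the filter, two-sided exact permutation tests are given. Read ratios carry exact binomial intervals, for counting error only. Summaries used Python 3.11.15. Of these steps only the limma fit was tested on simulated data. Rows on alternate contigs (3207) were paired with a gene by the same protein match within 200000 bp (2440 paired).

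Named genes were the 9, *flrt2*, *casp3a*, fixed paralogs, ligands, partners and markers, and the passing genes of each list or those of smallest p. The 9 genes and all lists were chosen with earlier results of these data known. Alternatives were other pseudocounts, filters, scalings and variance models, blocks for the title suffix, voom, alternate-contig reads, annotated rows alone and each library left out. The deviations from group means of libraries of like suffix correlated at r = 0.106 to 0.141 in 3 pairs (-0.223 to 0.112 in 13 others). The main test had no block for the suffix and did not use this pairing, which entered only in the alternatives with a block. No sequences are shown.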

Additional observations from a re-analysis of the deposited data

Results flagged for a closer look

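In 55 groups of 4 libraries examined, 3 had a library far from the other 3, where chance alone gives about 1 in 20 groups. *lcp1* in WT was 2.67 FPKM in 12_16 and 4.89 to 5.14 FPKM in the others. *csf1rb* in WT was 0.398 FPKM in 1_8 and 0.112 to 0.157 FPKM in the others, on 5 to 17 reads. *cxcr3.1* in *flrt2*-KO was 0.052 FPKM in 1_8_ysy, from 2 reads, and 0 in the others.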

How the results depend on the processing

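Of the 5 genes tested 0 passed in any of 23 alternatives, 21 planned and 2 chosen after seeing the data (both 12_16 libraries left out, and voom with no filter), although *spi1b* was not tested with the filter at 1 FPKM. *mpeg1.1*, *cxcr3.2* and *ptprc* were tested only in the 2 alternatives with no filter, and *coro1a* only in that with alternate-contig reads added, and 0 passed there. The replicate block by title suffix also called 0 of the 5 genes tested, with a smallest limma adjusted p of 0.388. The exact p of *mpeg1.1* and *cxcr3.2* did not change with equal column sums, and that of *ptprc* became 0.371. The log2 fold change turned from -0.16 to 0.065 in *csf1ra* without *flrt2*-KO 12_16, and from 0.12 to between -0.13 and -0.03 in *lcp1* (-0.13 without *flrt2*-KO 1_19, -0.08 without WT 12_16, -0.03 without *flrt2*-KO 2_17). Over libraries left out in turn, *laptm5* ranged from 0.13 to 0.83, *cybb* from 0.18 to 0.59, *spi1b* from 0.15 to 0.38, *lcp1* from -0.13 to 0.55 and *csf1ra* from -0.27 to 0.065.

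The 3288 rows that passed among all rows tested were 2126 with the block, which rests on 3 pairs, 2973 with the block that joins 1_8 and 1_8_ysy, 2166 with alternate-contig reads added, 1932 for annotated rows of the chromosomes alone (fewer rows tested), 1635 without both 12_16 libraries, and 2110 to 2932 with 1 library left out, lowest without *flrt2*-KO 1_19. Reads per library were few for *cxcr3.2* (0 to 7), *mpeg1.1* (0 to 12), *laptm5* (2 to 28) and *ptprc* (8 to 36).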
